A study of Homo sapiens with 6 samples.

Results

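The genes described here are ATF4 and 9 genes of the amino acid stress response, DDIT3, TRIB3, ASNS, CHAC1, SESN2, SLC7A11, SLC7A5, STC2 and DDIT4, in HCT116 cells given auxin. They were chosen by name, as textbook genes of the pathway, with earlier results of these data known. They were found by matching the gene identifiers of the deposited tables to GENCODE release 29. All 10 were found among the 58780 human genes listed, and all 10 passed the filter on low counts. RNA-seq was made from 6 libraries of HCT116, an established human colorectal carcinoma line. In 3 libraries the cells had received auxin for 16 h, and in the other 3 they had received DMSO, the solvent control. Auxin, a plant hormone, is used in engineered cells to have a degron-tagged protein degraded. The labels used here do not name a tagged protein, a clone or the auxin analog, and whether the DMSO cells carry the same alleles is not given in them. The labels call the libraries biological replicates 1 to 3 of each group. Nothing in them says that these came from separate cultures, so p-values measure the spread between these libraries.

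ATF4 is a bZIP transcription factor at the centre of the integrated stress response. Kinases that sense uncharged tRNA, misfolded protein in the endoplasmic reticulum, viral RNA or loss of haem phosphorylate the initiation factor eIF2alpha, which lowers general translation but favours translation of the ATF4 mRNA through its upstream reading frames. ATF4 protein then pairs with C/EBP and other bZIP partners on C/EBP-ATF response elements and raises genes of amino acid uptake and synthesis, redox balance and, under prolonged stress, cell death. An mRNA level therefore does not measure ATF4 activity, which is set largely by translation.

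The response element has the core TGATGNAA. It was searched on both strands of the RefSeq promoter windows (GRCh38.p14, 250 bases before to 50 after a gene's start). Of 27305 genes with a window, 4.46% held the core. Among the members with a window it was found in 2 of 9, ASNS and CHAC1. No window was available for SLC7A11, which was therefore not searched. In 41 other ATF4 target genes listed for this report, 31 had a window and 10 of those held it, as did 3 of 10 bZIP partner genes. The stretches below show the core in capitals, in both members and in 3 pathway genes whose levels are given further on. Each is printed along the gene's own strand, so that TTGCATCA is the core on the opposite strand.
ASNS, chr7:97872458-97872487, minus strand, 68 bases before the start: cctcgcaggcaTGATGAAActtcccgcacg
CHAC1, chr15:40953251-40953280, plus strand, 209 bases before the start: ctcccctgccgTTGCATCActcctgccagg
CEBPG, chr19:33374060-33374089, plus strand, 42 bases before the start: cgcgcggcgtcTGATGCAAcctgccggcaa
MTHFD1L, chr6:150866346-150866375, plus strand, 129 bases before the start: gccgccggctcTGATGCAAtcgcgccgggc
GOT1, chr10:99430804-99430833, minus strand, 198 bases before the start: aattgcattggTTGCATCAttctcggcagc

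These starts are RefSeq's, and GENCODE release 29 also has longer transcripts. In that annotation the ASNS stretch lies in an exon of 4 of 17 ASNS transcripts and the CHAC1 stretch in an exon of 2 of 5 CHAC1 transcripts. The CEBPG stretch lies in an intron. Searched the same way, the E-box CACGTG was in 2 of the 9 member windows, against 8.77% of all genes with a window. The capitals mark it in the windows of ATF4 and SLC7A5, which lack the TGATGNAA core.
ATF4, chr22:39520466-39520493, plus strand, 82 bases before the start: gaggagacggtCACGTGgtcgcggcgga
SLC7A5, chr16:87869621-87869648, minus strand, 130 bases before the start: gccggacgacgCACGTGctccgagctgg

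The AP-1 letters TGANTCA were in 1 of 9 member windows, that of DDIT3, against 9.37% of all genes with a window. A match describes letters in a window and shows no binding.

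The libraries held between 234037969 and 625895062 expected counts, the estimated number of fragments per gene summed over all rows. Replicate 1 of each group was the deepest. Levels are given as CPM, which scales the counts of each library to a common total with TMM factors, and levels of different genes are compared only in TPM, which corrects for transcript length. Group differences were tested with edgeR's quasi-likelihood test across 19725 genes, and a gene was called at a Benjamini-Hochberg adjusted p under 0.05. The auxin and DMSO libraries separated on the first principal component, which held 73.7% of the variance. The second, with 14.5%, set replicate 1 of both groups apart. Of the epithelial markers listed, 6 of 7 passed the filter, and their list summed to 2811 to 3163 CPM in DMSO and 3754 to 4031 CPM in auxin. VIL1 stayed between 0.0184 and 0.0448 CPM. Of 10 markers of other cell types, 9 were under 1 CPM in every library, and the list summed to 3.68 to 5.87 CPM in DMSO and 1.69 to 3.69 CPM in auxin, mostly from COL1A1 (1.21 to 5.14 CPM).

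After 16 h of auxin 7 of the 10 genes were higher, 1 was lower and 2 were not called. The higher genes were ATF4, SLC7A11, SLC7A5, STC2, ASNS, CHAC1 and DDIT3, and the lower gene was SESN2. TRIB3 and DDIT4 were not called. In such bulk libraries fewer cells expressing a gene and less RNA per cell cannot be told apart. Across all genes tested 52.3% were called, 25.4% higher and 26.9% lower, so that 8 calls among 10 genes stand beside a background of more than 1 gene in 2. The median log2 fold change of the members was 0.56, against 0.02 over all genes tested. In 8 of the 10 genes the 3 auxin values lay wholly above or below the 3 DMSO values, which was also the case for 60.3% of all genes tested. With upper-quartile scaling the median of all genes moved up by 0.12 on the log2 scale and the calls over all genes were 6534 higher and 4416 lower, against 5010 and 5311 with TMM. With the replicate number as a block they were 7005 and 6789. Under upper-quartile scaling the members still gave 7 higher and 1 lower.

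**Figure D1:**
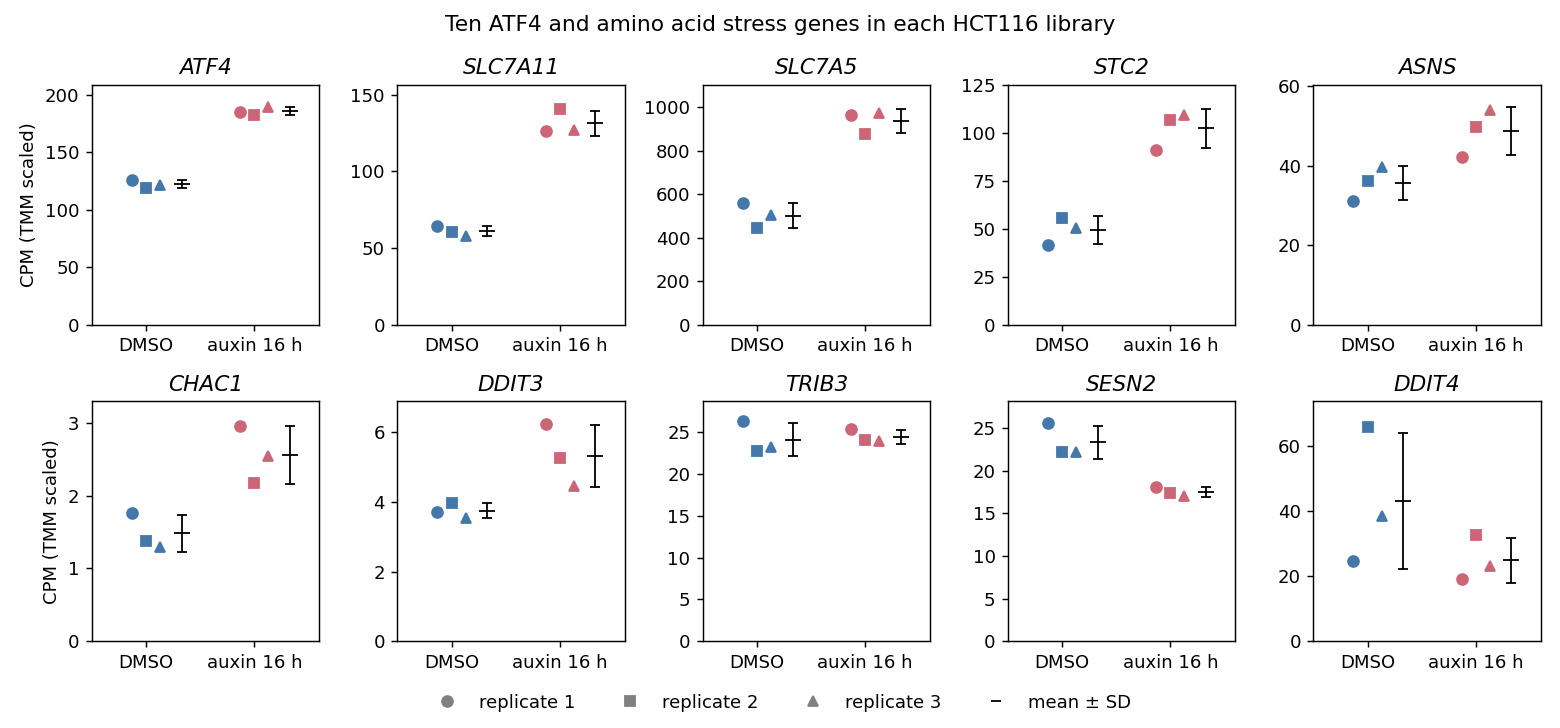
CPM (TMM scaled, axes from 0) of the 10 genes in each library, with symbols for replicates 1 to 3 and black bars for the mean ± SD of a group (n = 3). ATF4, SLC7A11, SLC7A5, STC2, ASNS, CHAC1 and DDIT3 have all auxin points above all DMSO points, SESN2 has them below, and the groups of TRIB3 and DDIT4 overlap.

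In the DMSO libraries the members covered a wide range of levels per length. SLC7A5 stood at 122.8 ± 39.8 TPM (SD, n = 3) and ATF4 at 99.9 ± 25.0 TPM. The ranges of these 2 genes overlapped across libraries, but SLC7A5 was above ATF4 within each of the 3 libraries. DDIT4 (26.5 ± 9.0 TPM), ASNS (22.9 ± 3.20 TPM) and STC2 (17.1 ± 2.61 TPM) followed, with overlapping values between neighbours. Then came TRIB3 at 10.7 ± 3.31 TPM, SESN2 at 7.25 ± 2.27 TPM, SLC7A11 at 6.69 ± 1.89 TPM and DDIT3 at 5.17 ± 1.06 TPM, in which neighbours again overlapped. CHAC1 was the lowest of the 10, at 1.16 ± 0.53 TPM, with no library overlapping those of DDIT3. In auxin SLC7A5 and ATF4 were again at the top, at 203.5 ± 35.2 and 135 ± 18.3 TPM, and CHAC1 at the bottom with 1.75 ± 0.58 TPM.

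ATF4 mRNA, the transcript of the factor itself (ENSG00000128272.14, chr22:39519695-39522685, plus strand, GRCh38), rose 1.52-fold. It measured 126, 119 and 121 CPM in DMSO replicates 1, 2 and 3 and 185, 182 and 190 CPM in auxin replicates 1, 2 and 3. The groups lay far apart relative to their spread, with means of 122 ± 3.50 and 186 ± 3.66 CPM (SD, n = 3). The log2 fold change was 0.60 (SE 0.05, edgeR adjusted p = 9.6e-05), and the same-numbered pairs gave 0.56, 0.61 and 0.64. One transcript, ATF4-202, held 98.6% of the gene's TPM in DMSO and 99.1% in auxin. On the TPM scale the libraries of a group spread more, and limma-trend on log2(TPM + 1) did not call ATF4 (adjusted p = 0.15).

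SLC7A11, the cystine-glutamate antiporter subunit xCT that supplies cystine for glutathione, had the largest fold change of the 10 in the fit without a block (ENSG00000151012.13, chr4:138164097-138242349, minus strand). It measured 64.6, 60.2 and 58.1 CPM in DMSO and 127, 141 and 127 CPM in auxin. All 3 auxin libraries were near or above 2 times every DMSO library. STC2 was above it without DMSO replicate 2 and in both limma-trend fits on TPM, and SLC7A5 and CHAC1 with GC-corrected offsets. The log2 fold change was 1.11 (SE 0.07, edgeR adjusted p = 2.2e-05), and it was also called by limma-trend on log2(TPM + 1).

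SLC7A5, the large neutral amino acid transporter LAT1 (ENSG00000103257.8, chr16:87830023-87869488, minus strand), measured 557, 442 and 504 CPM in DMSO and 965, 875 and 975 CPM in auxin. Its lowest auxin library was well above its highest DMSO library. The log2 fold change was 0.90 (SE 0.10, edgeR adjusted p = 0.00026). SLC3A2, the heavy chain 4F2hc that pairs with both SLC7A5 and SLC7A11 at the membrane, measured 127, 112 and 128 CPM in DMSO and 214, 214 and 224 CPM in auxin. The mRNAs of all 3 chains were therefore higher, with a log2 fold change of 0.83 for SLC3A2 (SE 0.07, adjusted p = 7.4e-05, edgeR). Protein was not measured.

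STC2, a secreted glycoprotein of the stanniocalcin family (ENSG00000113739.10, chr5:173314713-173329503, minus strand), measured 41.9, 55.9 and 50.6 CPM in DMSO and 91.1, 107 and 110 CPM in auxin. Its level rose in all 3 same-numbered pairs, by 1.12, 0.93 and 1.12 on the log2 scale. The fitted change was 1.05 (SE 0.12, edgeR adjusted p = 0.00032). SLC7A11 and STC2 were the 2 members that limma-trend on TPM also called higher.

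ASNS makes asparagine from aspartate and glutamine and carries the response element printed above (ENSG00000070669.16, chr7:97852118-97872542, minus strand). It measured 31.2, 36.3 and 39.7 CPM in DMSO and 42.2, 49.6 and 54.1 CPM in auxin. The groups were close at their edges, but within same-numbered pairs the rise was nearly constant, at 0.44, 0.45 and 0.45 on the log2 scale. The fitted change was 0.45 (SE 0.12, edgeR adjusted p = 0.017). Leaving out DMSO replicate 2 or auxin replicate 2 gave an adjusted p of 0.053 each, and leaving out auxin replicate 3 gave 0.062. AC079781.5, a processed transcript annotated on the same strand over the whole of ASNS, measured 0.33 CPM in DMSO and 0.69 CPM in auxin on average, and reads of the 2 genes could be split between them in counting.

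CHAC1, a glutathione-degrading enzyme, is the other member with the core in its window (ENSG00000128965.12, chr15:40952962-40956519, plus strand). It measured 1.77, 1.38 and 1.29 CPM in DMSO and 2.96, 2.17 and 2.54 CPM in auxin. Even its lowest auxin library was above its highest DMSO library. The log2 fold change was 0.79 (SE 0.18, edgeR adjusted p = 0.0077), on a gene that is low in both groups.

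DDIT3 encodes CHOP, a bZIP factor that dimerises with C/EBP proteins and promotes cell death in prolonged stress (ENSG00000175197.12, chr12:57516588-57521737, minus strand). It measured 3.71, 3.98 and 3.55 CPM in DMSO and 6.24, 5.27 and 4.45 CPM in auxin. The auxin libraries were all higher but spread widely, and the pairs gave log2 changes of 0.75, 0.40 and 0.32. The fitted change was 0.51 (SE 0.14, edgeR adjusted p = 0.02). Its call was lost with library size as the only scaling (adjusted p = 0.085), without DMSO replicate 3 (0.063) and without auxin replicate 2 (0.052). MARS, on the opposite strand, overlaps DDIT3 by 982 bases and fell by 2.45 on the log2 scale (edgeR adjusted p = 2.3e-06), and MBD6 overlaps it by 1028 bases. Whether counting used the strand is not given in the sources used here, so reads from the overlaps cannot be assigned with certainty.

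TRIB3, a pseudokinase that binds ATF4 and CHOP and restrains their activity, showed no call (ENSG00000101255.10, chr20:362835-397559, plus strand). It measured 26.4, 22.8 and 23.2 CPM in DMSO and 25.5, 24.1 and 23.9 CPM in auxin. The groups overlapped completely. The log2 fold change was 0.02 (SE 0.08, edgeR adjusted p = 0.84), and its sign turned with library size as the only scaling (-0.07) and on the TPM scale (-0.12 with a pseudocount of 1).

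SESN2 encodes a leucine-binding inhibitor of mTORC1 and moved the other way (ENSG00000130766.4, chr1:28259527-28282491, plus strand). It measured 25.6, 22.2 and 22.2 CPM in DMSO and 18.1, 17.3 and 17.1 CPM in auxin. Every auxin library was below every DMSO library. The fitted change was -0.42 (SE 0.08, edgeR adjusted p = 0.0036), a direction that did not hold with GC-corrected offsets, described below.

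DDIT4 encodes REDD1, an inhibitor of mTORC1 that acts through TSC2 (ENSG00000168209.4, chr10:72273920-72276036, plus strand). It measured 24.7, 65.8 and 38.5 CPM in DMSO and 19.1, 32.5 and 23.1 CPM in auxin. DMSO replicate 1 lay inside the auxin range and DMSO replicate 2 far above it, so the groups overlapped. The log2 fold change was -0.79 (SE 0.36, edgeR adjusted p = 0.1). Within same-numbered pairs the auxin library was lower each time, with log2 changes of -0.37, -1.02 and -0.73, and with the replicate number as a block DDIT4 was called lower (log2 fold change -0.71, edgeR adjusted p = 0.00031). It was also called without DMSO replicate 1 (-1.06, adjusted p = 0.015) and by limma-trend on log2(TPM + 0.1) (-0.84, adjusted p = 0.045), whereas without DMSO replicate 2 it was at -0.36 (edgeR adjusted p = 0.33).

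Fold changes depended on the GC content of the transcript across the whole data set. Genes were put into 5 equal groups by GC, and the group with the highest GC content, above 57.6%, had a median log2 fold change of -0.63, with 10.6% called higher and 52.9% lower. The other groups had medians between -0.06 and 0.17. The members ran from 35.4% GC in SLC7A11 to 62.6% in CHAC1. SLC7A5 (61.1%) and CHAC1 rose although most called genes of that GC content fell. SESN2 (59.5%) and DDIT4 (58.1%) had negative fold changes like their neighbours in GC. TRIB3 (60.9%), in the same group, was at 0.02 without a call. An alternative fit removed the trend of each library on GC content before the test. In it SLC7A5 rose by 1.47, CHAC1 by 1.44 and ATF4 by 0.82 on the log2 scale, and TRIB3 was called higher (0.57, edgeR adjusted p = 0.00014). In the same fit SESN2 changed sign (0.03, adjusted p = 0.71), and ASNS (0.18, adjusted p = 0.14) and DDIT3 (0.31, adjusted p = 0.1) were no longer called. With the GC correction and the replicate block together, ASNS (adjusted p = 0.00056) and DDIT3 (0.02) were called higher at the same sizes and DDIT4 lower (-0.37, 0.012). In that fit 8 members were higher and 1 lower, beside 5982 higher and 7575 lower of 19708 genes. The median of the members with the GC correction alone was 0.70 against -0.06 over all genes. The part of GC content in these results was not tested further.

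**Figure D2:**
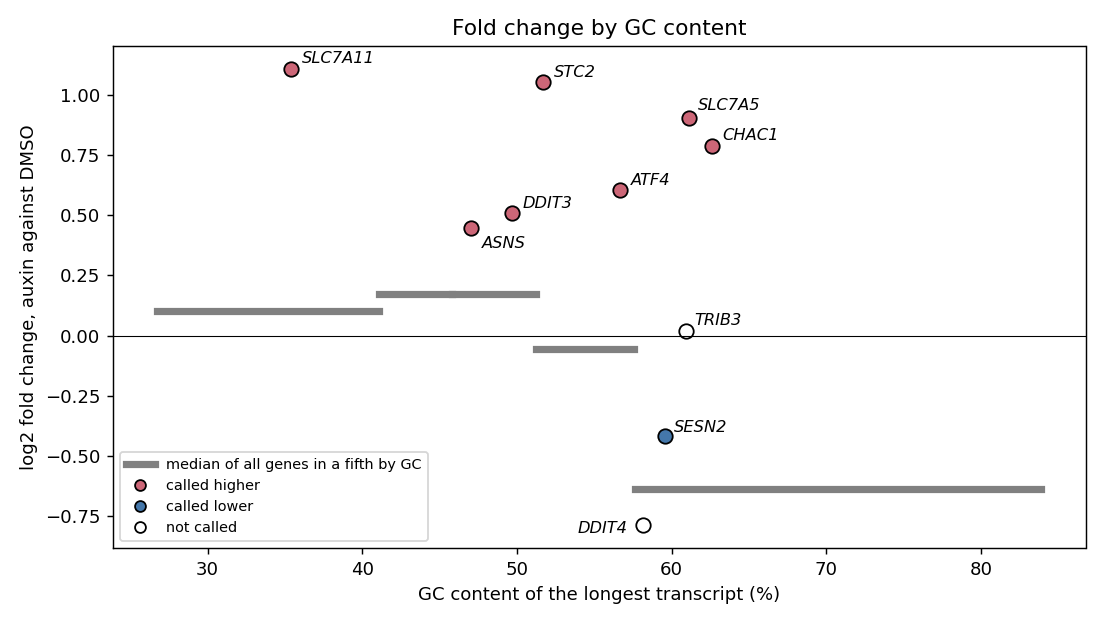
Log2 fold change of auxin against DMSO (vertical) by GC content of the longest transcript in percent (horizontal). Grey bars are medians of all tested genes in 5 equal groups by GC, and points are the 10 genes, coloured by their call; the highest group has a median of -0.63 while SLC7A5 and CHAC1 there are at 0.90 and 0.79.

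**Figure D3:**
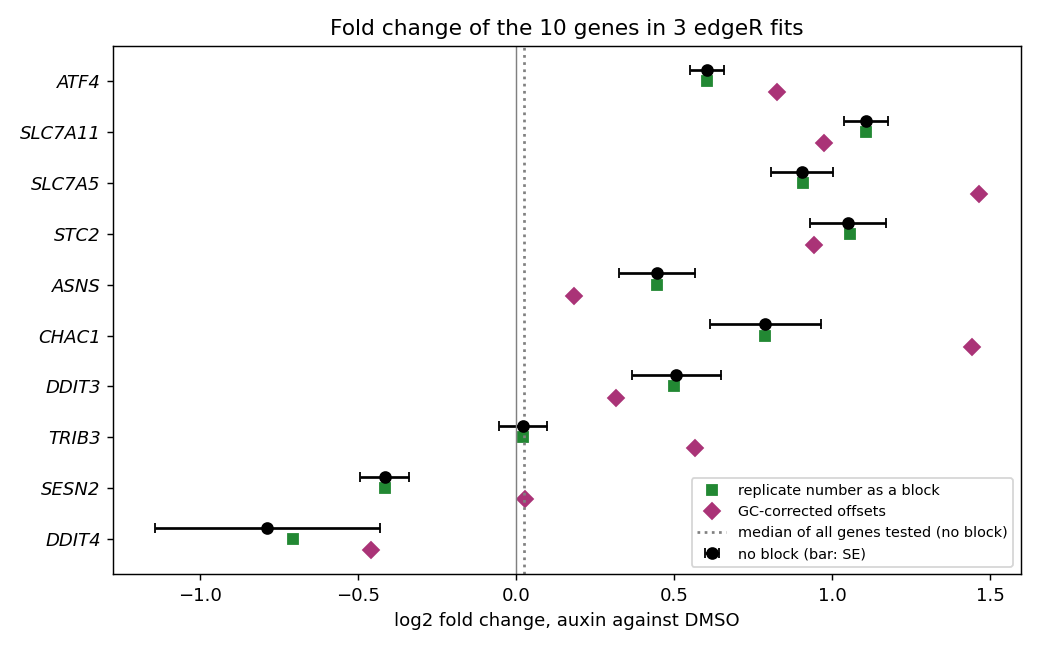
Log2 fold change of each gene in the fit without a block (circles, bars are SE), with the replicate number as a block (squares) and with GC-corrected offsets (diamonds), and the median of all genes (dotted line). SLC7A11, STC2, SLC7A5, ATF4 and CHAC1 stay right of 0.5 in all 3, while TRIB3 and SESN2 move to the right with the GC correction.

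The counts of this and the following gene lists stand beside 25.4% higher and 26.9% lower over all genes tested. Their counts with the replicate block stand instead beside 7005 higher and 6789 lower of 19725 genes in that fit. The upstream arm was mixed. Of 18 genes listed for the eIF2alpha kinases, their regulators, the phosphatase subunits and the exchange factor eIF2B, all were tested, with 4 higher, 8 lower and a median of -0.08. With the replicate block the counts were 7 higher and 9 lower. EIF2AK4, the kinase GCN2 that senses uncharged tRNA, rose by 0.63 (edgeR adjusted p = 0.0027), while its coactivator GCN1 went from 325, 270 and 279 CPM in DMSO to 70.3, 53.7 and 56.0 CPM in auxin. GCN1 fell by 2.28 on the log2 scale (adjusted p = 1.4e-05). IMPACT, which competes with GCN2 for GCN1, rose by 0.85 (adjusted p = 0.00028). EIF2AK3, the endoplasmic reticulum kinase PERK, fell by 0.68 (adjusted p = 0.00046), and EIF2AK2, the kinase PKR, fell by 0.27 (adjusted p = 0.026). EIF2AK1, the haem-regulated kinase HRI, rose by 0.20 (adjusted p = 0.03), but stood at -0.07 with GC-corrected offsets. PPP1R15A, the inducible phosphatase subunit GADD34 and itself an ATF4 target, rose by 0.34 (adjusted p = 0.0022). Among the eIF2B subunits EIF2B2 fell by 1.72 (adjusted p = 4.8e-06) and EIF2B5 by 1.31 (adjusted p = 7.6e-05).

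Of 12 bZIP genes listed as dimer partners of ATF4, 11 were tested, with 7 higher, 2 lower and a median of 0.27. ATF3, a repressor induced by stress, rose by 0.62 (edgeR adjusted p = 0.00013), from 24.9, 25.9 and 24.4 CPM to 37.2, 40.0 and 38.7 CPM. FOSL1, an AP-1 subunit, rose by 1.54 (adjusted p = 1.1e-05) and JUN by 0.51 (adjusted p = 0.00018), while FOS fell by 0.32 (adjusted p = 0.025). CEBPG, the C/EBP partner with the core printed above, rose by 0.18 (adjusted p = 0.016) and stood at -0.07 with GC-corrected offsets. CEBPB was at 0.24 without a call (adjusted p = 0.16), and the replicate block called it (adjusted p = 0.00093). With GC-corrected offsets CEBPB was at 1.07 (adjusted p = 4.1e-06). ATF5, a close relative of ATF4 that is likewise regulated through upstream reading frames, moved against it, from 18.8, 19.0 and 21.4 CPM to 8.09, 8.55 and 9.95 CPM. It fell by 1.15 (adjusted p = 0.0001).

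Other known ATF4 targets moved both ways, in shares near those of all genes tested, of which 25.4% were higher and 26.9% lower. Of 41 listed, 37 were tested, and 10 were higher, 12 lower and 15 not called, with a median of -0.01. The replicate block gave 14 higher and 14 lower, beside 7005 and 6789 of all genes tested. Of the 10 with the TGATGNAA core in their window 3 were higher, 3 lower, 3 not called and 1 not tested. BCAT1, one of the higher targets with the core, never passed 0.14 CPM. Both members with the core were higher, but so were 7 of all 10 members. Whether the core goes with the change was not tested.

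Among 13 tested genes of amino acid synthesis 6 were higher and 3 lower, with a median of 0.13. ALDH18A1, which starts proline synthesis from glutamate, rose by 0.88 (edgeR adjusted p = 0.0002), whereas PYCR1, which completes it, fell by 1.69 (adjusted p = 3e-05). PSAT1 of serine synthesis rose by 0.33 (adjusted p = 0.0018), and PHGDH, the first enzyme of that route, was at -0.07 (adjusted p = 0.52), with 0.05 under upper-quartile scaling. SHMT2, the mitochondrial serine hydroxymethyltransferase, went from 42.1, 41.5 and 43.3 CPM to 9.62, 10.1 and 10.3 CPM. It fell by 2.08 (adjusted p = 2e-06), while MTHFD1L of the same mitochondrial folate route rose by 0.48 (adjusted p = 0.0016). CTH, which makes cysteine from cystathionine, rose by 0.55 (adjusted p = 0.0045), and the aspartate aminotransferase GOT1 fell by 0.54 (adjusted p = 0.00019). MTHFD1L and GOT1 both carry the core shown above and had opposite signs.

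Of 10 tested amino acid transporters outside the members, 2 were higher and 5 lower, with a median of -0.09. Besides SLC3A2, the neutral amino acid transporter SLC38A2 rose by 0.32 (edgeR adjusted p = 0.023). SLC1A4, a carrier of alanine, serine and cysteine, fell by 0.70 (adjusted p = 0.00054), SLC7A6, another light chain of SLC3A2, fell by 0.70 (adjusted p = 0.0041), and SLC38A1 fell by 0.24 (adjusted p = 0.019). In the third list, of stress and signalling genes, 2 of 14 tested were higher and 4 lower, with a median of -0.06. EIF4EBP1, the translation repressor 4E-BP1, rose by 0.55 (adjusted p = 0.013). The other higher gene, NUPR1, peaked at 0.094 CPM, in auxin replicate 1. BEX2 fell by 0.86 (adjusted p = 0.0054), the sestrin SESN3 by 0.63 (adjusted p = 0.007) and CCPG1, an autophagy receptor of the endoplasmic reticulum, by 0.60 (adjusted p = 0.0074).

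**Figure D4:**
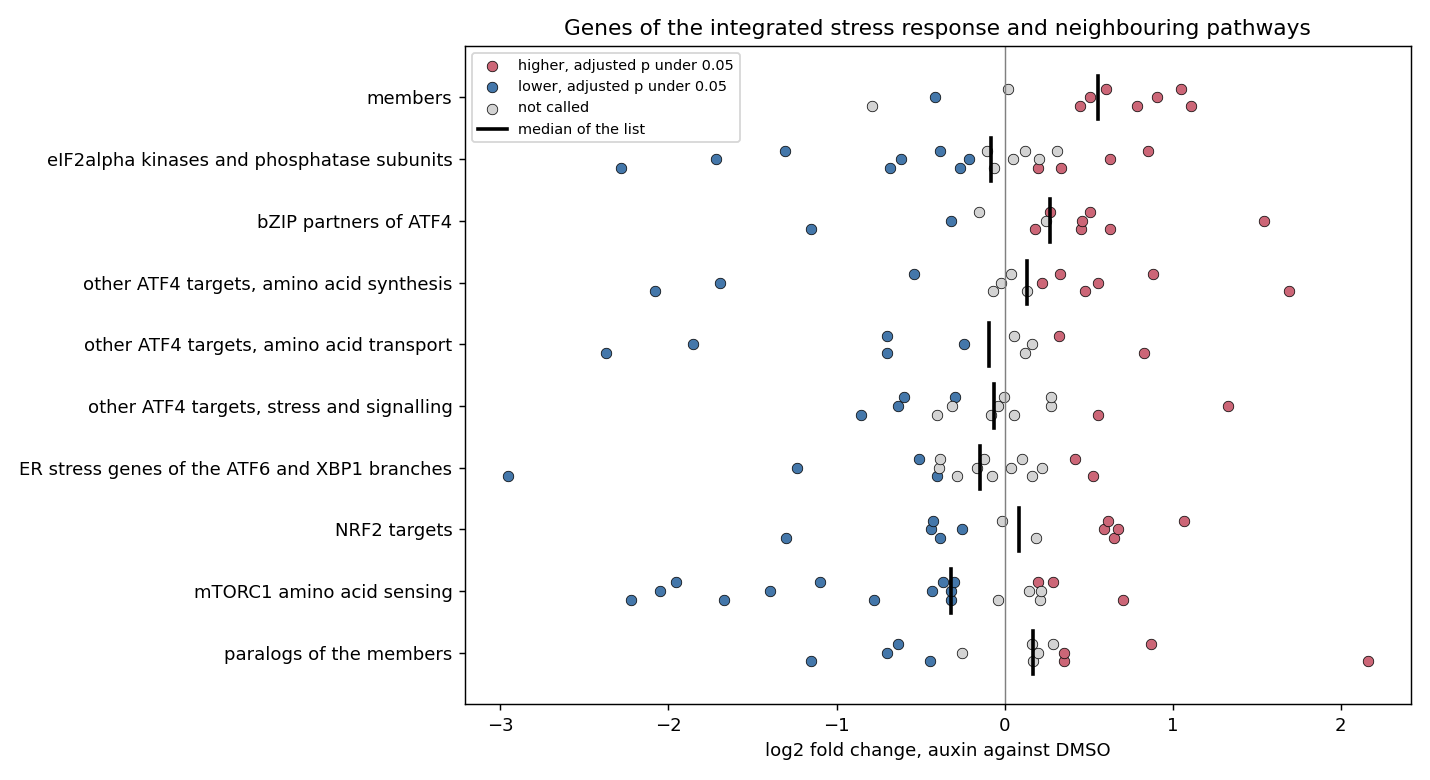
Log2 fold change of every tested gene (points) in the 10 genes and 9 related gene lists, with black bars for the median of a list; red is called higher, blue called lower and grey not called. The members have a median of 0.56, while the 3 lists of other ATF4 targets have medians of 0.13, -0.09 and -0.06.

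Neighbouring stress pathways held genes of both directions, as did all genes tested (25.4% higher and 26.9% lower). Of 16 genes of the ATF6 and XBP1 branches of the unfolded protein response, all tested, 2 were higher and 4 lower, with a median of -0.15. The replicate block gave 5 and 9, beside 7005 and 6789 of all genes tested. HYOU1, a chaperone of the endoplasmic reticulum, went from 126, 118 and 128 CPM to 18.6, 13.5 and 15.9 CPM, a fall by 2.95 on the log2 scale (edgeR adjusted p = 4.4e-06). CRELD2 fell by 1.24 (adjusted p = 4.2e-05) and the disulfide isomerase PDIA4 by 0.51 (adjusted p = 0.00071). The sensor ATF6 rose by 0.53 (adjusted p = 0.00071) and XBP1 by 0.42 (adjusted p = 0.0026).

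SLC7A11 is also a target of NRF2, the factor of the oxidative stress response. Of 12 other NRF2 targets listed, all tested, 5 were higher and 5 lower, with a median of 0.09. OSGIN1 rose by 1.07 (edgeR adjusted p = 0.00031), the sulfiredoxin SRXN1 by 0.67 (adjusted p = 0.00017) and the quinone reductase NQO1 by 0.65 (adjusted p = 0.00014). TALDO1 of the pentose phosphate pathway fell by 1.30 (adjusted p = 4.6e-06). The haem transporter SLC48A1 fell by 0.44 (adjusted p = 0.014) and HMOX1, which degrades haem, by 0.42 (adjusted p = 0.0032).

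SESN2 and DDIT4 act on mTORC1, the kinase complex that responds to amino acids. Of 19 genes of that sensing machinery, all tested, 3 were higher and 12 lower, with a median of -0.32. With the replicate block 6 were higher and 12 lower. TSC2, through which DDIT4 acts, went from 36.1, 25.6 and 26.6 CPM to 8.42, 6.39 and 6.52 CPM and fell by 2.05 (edgeR adjusted p = 7.5e-05). NPRL2 fell by 1.96 (adjusted p = 4.9e-06) and NPRL3 fell by 1.67 (adjusted p = 0.00074), both subunits of GATOR1, which switches mTORC1 off when amino acids are short. DEPDC5, the remaining GATOR1 subunit, rose by 0.20 (adjusted p = 0.026). The Rag GTPase RRAGA rose by 0.70 (adjusted p = 0.00018), and WDR59 of GATOR2 by 0.29 (adjusted p = 0.03).

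Close relatives of the members did not follow them one for one. Of 15 paralogs, 13 were tested, with 4 higher, 4 lower and a median of 0.17, and the block gave 7 and 4. TRIB1 stood at 487, 512 and 492 CPM in DMSO and 882, 915 and 927 CPM in auxin, a rise by 0.87 (edgeR adjusted p = 3.2e-05), where TRIB3 was not called and TRIB2 fell by 0.44 (adjusted p = 0.032). CHAC2 rose by 0.35 (adjusted p = 0.011). STC1 rose by 2.16 (adjusted p = 0.0028), but never passed 0.26 CPM. SESN1 was at 0.17 (adjusted p = 0.19) and at -0.07 with GC-corrected offsets, and DDIT4L at 0.29 (adjusted p = 0.27), with the block giving adjusted p-values of 0.0039 and 0.0075. Among the SLC7 paralogs SLC7A2 rose by 0.35 (adjusted p = 0.0072), and SLC7A1 was at 0.16 (adjusted p = 0.09, and 0.0023 with the block). SLC7A8 at 0.20 (adjusted p = 0.18) and SLC7A9 at -0.25 (adjusted p = 0.71) were not called, and SLC7A7 and SLC7A10 did not pass the filter.

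Several of these smaller calls were close to the threshold. Those of EIF2AK1, EIF2AK2, CEBPG, FOS, SLC38A1, SLC38A2, DEPDC5, WDR59 and TRIB2 were each lost when any of 3 to 5 of the libraries was left out singly, with an edgeR adjusted p of at most 0.12, while their log2 fold changes stayed at 0.72 to 1.24 times the value over all libraries. CHAC2 lost its call without DMSO replicate 2 (adjusted p = 0.054). With GC-corrected offsets PSAT1 (adjusted p = 0.28), SLC38A2 (0.067), HMOX1 (0.5), SLC48A1 (0.22), DEPDC5 (0.057), WDR59 (0.43) and SLC7A2 (0.066) were not called either. With the GC correction and the block together, PSAT1 (0.017), SLC38A2 (0.0012), SLC48A1 (0.023), DEPDC5 (0.0039) and SLC7A2 (0.019) were called. Of the genes called in both fits, GC-corrected offsets moved 5 non-members away from 0 by more than 1.5 times, EIF4EBP1 (1.35), OSGIN1 (1.77), PPP1R15A (0.72), EIF2AK2 (-0.45) and SLC38A1 (-0.46). They brought ATF3 (0.36), ATF5 (-0.68), ATF6, CHAC2, CTH, EIF2AK4, NPRL3, NQO1, PYCR1 and XBP1 closer to 0 by more than 1.5 times.

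The transcripts of the members were compared as shares of the gene's TPM. In 5 member genes 13 transcripts reached a mean share of 5% in either group, and in 2 of the 13 the groups did not overlap, against 30.3% of such transcripts over all genes. Both belong to DDIT3. DDIT3-201, with 4 exons, held 40.0, 40.9 and 41.4% in DMSO and 16.7, 17.9 and 27.8% in auxin. DDIT3-205, with 3 exons, held 44.7, 40.3 and 38.5% in DMSO and 58.8, 45.6 and 45.5% in auxin. For DDIT3-205 the groups are separated only narrowly. An exact two-sided permutation test gave p = 0.1 for each, the smallest that 3 against 3 allows, and 0.65 after Benjamini-Hochberg adjustment over the 13. In the annotation DDIT3-205 keeps the 267 bases of chr12:57517439-57517705, which DDIT3-201 removes as its second intron. In absolute terms DDIT3-201 had 2.55, 1.93 and 1.83 TPM in DMSO and 1.44, 1.03 and 1.45 TPM in auxin, while DDIT3-205 had 2.85, 1.90 and 1.70 TPM and then 5.07, 2.63 and 2.37 TPM. Together with DDIT3-202, which also has 4 exons and also splices out those bases, DDIT3-201 made up 50.3, 58.3 and 60.6% in DMSO and 32.4, 44.7 and 50.5% in auxin. The sum was lower in auxin within each same-numbered pair, and the groups overlap only between DMSO replicate 1 and auxin replicate 3. How reads are shared between such transcripts is estimated, and MARS overlaps the gene on the other strand.

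**Figure D5:**
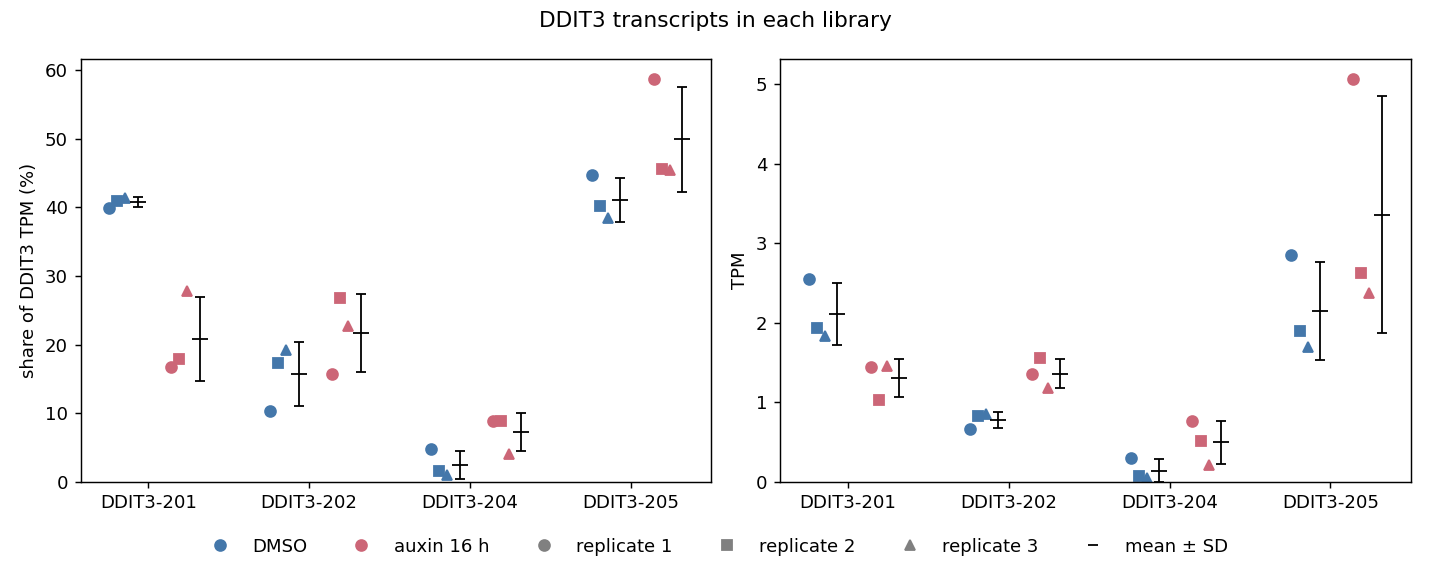
Share of the gene's TPM in percent (left) and TPM (right) of 4 DDIT3 transcripts in each library, blue for DMSO and red for auxin, with bars for the mean ± SD (n = 3). DDIT3-201 falls from about 40.8% to 20.8% on average while DDIT3-205 goes from 41.1% to 49.96%.

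In the other member genes compared in this way the transcripts kept overlapping shares. Genes with a single transcript above 5% were not compared. Among these, SLC7A11-201 held 96.5, 96.8 and 97.5% in DMSO and 99.3, 99.5 and 99.0% in auxin. DDIT4-201 held 97.4, 98.1 and 98.7% in DMSO and 95.7, 97.2 and 96.9% in auxin. In both the groups did not overlap (exact two-sided permutation p = 0.1 each, not adjusted). The groups of ATF4-202 and TRIB3-201 overlapped, and SESN2-201 held 100% in every library. No share over all genes is given for transcripts of this kind. SLC7A5-201 held 59.7 to 70.6% in DMSO and 56.8 to 62.4% in auxin. STC2-203, annotated as a retained intron, held 38.3 to 44.7% in DMSO and 40.4 to 47.4% in auxin.

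The genes whose log2 CPM over the 6 libraries was most like that of ATF4, by the root mean square difference of the centred profiles among 12847 genes, were SUMO3 (0.017), POLDIP3, FYCO1, MANBAL and SNX19. Their log2 fold changes lay between 0.59 and 0.64. The closest member was DDIT3, at rank 2214, followed by SLC7A5 at 2225 and ASNS at 2265.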

How the data were processed

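The authors deposited a gene table and a transcript table for each of the 6 libraries. Per the file headers these give expected counts (estimated counts that need not be whole), TPM and, for each count, its posterior SD, which was treated as a score. Per the labels' protocols, total RNA was treated with DNase, depleted of ribosomal RNA, and made into stranded paired-end libraries. The submitters' processing notes name bcl2fastq 2.20, STAR, DESeq2 and the builds GRCh38 and hg38. The counting software, its annotation and its use of strand are not given in the sources used here. All 58780 human gene identifiers matched GENCODE release 29, and 746 rows that name no human gene, 2.55 to 11.1 CPM per library, were left out.

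Expected counts were rounded and tested with edgeR 4.0.16 in R 4.3.3 (filterByExpr, TMM, glmQLFit, glmQLFTest, Benjamini-Hochberg over all genes tested). The script was tested on simulated data. limma 3.58.1 and DESeq2 1.42.0 served as alternatives, along with other scalings, filters, posterior mean counts, thinned libraries, replicate 1 or single libraries left out, and, added after the data were seen, fits with GC-corrected offsets (with and without the block) and a blocked fit without replicate 1. Transcript shares were tested by exact permutation over libraries. Promoter windows came from RefSeq (GRCh38.p14). The depth limits precision little for these genes, and counting error was below the spread between libraries: chi-square values of same-group library pairs, divided by their degrees of freedom, were 38.4 to 614.

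Samples of the groups share replicate numbers in the labels. Across genes, deviations from the group means correlated at 0.651, 0.265 and 0.276 in pairs 1, 2 and 3. DMSO replicate 3 with auxin replicate 2 gave 0.312, and DMSO replicate 2 with auxin replicate 3 gave 0.18. Replicate 1 against the other numbers ran from -0.475 to -0.356. These values set replicate 1 of both groups apart but cannot tell how replicates 2 and 3 pair. The numbers were still taken to pair the libraries, and results with the block rest on that. The fit with the replicate number as a block is given where it changes a member's or named gene's call or the count of a list by over 1.5 times, and for all genes and the other ATF4 targets. The text names all members, the eIF2alpha kinases, PPP1R15A, ATF3, ATF5, CEBPB, CEBPG, SLC3A2, PSAT1, PHGDH, the paralogs, up to 3 higher and 3 lower genes per other list with the largest change and a mean CPM of at least 1, and the 5 profiles most like ATF4. The members and the 12 lists were chosen with earlier results of these data known.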

Additional observations from a re-analysis of the deposited data

How the results depend on the processing

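Gene results were recomputed under 21 other settings, in all of which SLC7A11 and STC2 stayed called higher, and transcript shares under 8. With limma-trend the genes called were 970 higher and 2966 lower on log2(TPM + 1) and 1017 and 3223 on log2(TPM + 0.1); members called higher were 2 in both fits and lower 0 and 1, and other ATF4 targets 3 higher in both and 7 and 6 lower. Members called lower were 2 with no filter on low genes, 2 with the replicate block, 2 from replicates 2 and 3 of both groups with and without that block, and 0 with GC-corrected offsets. Leaving out 1 library gave 3876 to 4979 genes higher and 4493 to 5575 lower. It gave 5 to 7 members higher and 1 to 2 lower, and 7 to 10 other ATF4 targets higher and 10 to 12 lower. The groups did not overlap in 2 to 4 member transcripts, and the 4 came without DMSO replicate 1 or auxin replicate 1. Groups separate more easily with fewer libraries, and no share over all transcripts is given beside these counts. TRIB3 turned to -0.071 with library size only, -0.0053 with no filter, and -0.12 and -0.13 in the limma fits with pseudocounts of 1 and 0.1. Without 1 library it ran from -0.041 to 0.091, below 0 without DMSO replicate 2 or 3 or auxin replicate 1. With GC-corrected offsets, alone and with the block, SESN2 stood at 0.028 and 0.026, EIF2AK1 at -0.068 and -0.068, CEBPG at -0.068 and -0.068, and SESN1 at -0.072 and -0.0699. PHGDH was 0.054 with upper-quartile factors, SLC7A8 -0.0043 and -0.011 in the limma fits, and SLC7A9 ran from -0.99 without auxin replicate 1 to 0.0404 without auxin replicate 2. The causes were not tested. Among the genes named, the replicate block changed the calls of DDIT4, CEBPB, SLC7A1, SESN1 and DDIT4L and no other.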

Other observations

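Some transcripts under the share of 5% used in the report stood apart between the groups, and were picked after their values were seen. SLC7A11-202, annotated as subject to nonsense-mediated decay, held 3.49, 3.20 and 2.51% of the gene's TPM in DMSO replicates 1, 2 and 3 and 0.65, 0.51 and 1.05% in auxin. It moved against the gene, whose total rose. ASNS-216, annotated as a retained intron, held 1.68, 1.01 and 1.06% in DMSO and 2.12, 2.39 and 2.16% in auxin. DDIT4-203, also a retained intron, held 2.51, 1.79 and 1.12% in DMSO and 3.85, 2.64 and 3.02% in auxin. The exact two-sided permutation p is 0.1 for each of the 3, the smallest that 3 against 3 allows, with no adjustment for their choice.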
